A study of Mus musculus with 10 samples.

Results

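Integrin α9 (Itga9) pairs with the integrin β1 subunit (Itgb1) to form α9β1, a cell-surface receptor for matrix proteins. Described here are the genes of both subunits and of 4 matrix proteins that α9β1 is known to bind, fibronectin (Fn1), tenascin-C (Tnc), EMILIN-1 (Emilin1) and polydom (Svep1). They were taken by name, as 6 of 42564 genes shared by the plate count tables, and all 6 were also among the 32245 gene symbols of the droplet libraries. In lymphatic endothelial cells (LECs), α9β1 is best known for its part in building the leaflets of lymphatic valves, where it meets a fibronectin form that carries the alternatively spliced EDA domain. Tenascin-C is a matricellular protein of growing and wounded tissue, EMILIN-1 is an elastic-fibre-associated glycoprotein at the contact between LECs and the surrounding matrix, and polydom is a large secreted protein, made mainly by mesenchymal cells, that is needed for lymphatic vessel remodelling. Counts per gene cannot separate the spliced forms of Fn1.

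In the mouse build GRCm38, Itga9 lies on the plus strand of chromosome 9 (118606690 to 118901003) and Itgb1 on the plus strand of chromosome 8 (128685654 to 128733200). Fn1 lies on the minus strand of chromosome 1 (71585520 to 71653200) and Emilin1 on the plus strand of chromosome 5 (30913402 to 30921277). Tnc (63959785 to 64047015) and Svep1 (58042442 to 58206859) both lie on the minus strand of chromosome 4. Itga9, Fn1, Tnc and Svep1 each overlap a less studied gene on the opposite strand, and reads from such partners cannot be told apart here because the sources do not state whether counting used the strand.

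The cells came from the ear skin of mice. For the plates, LECs were sorted one per well as CD31+ PDPN+ CD45- CD11b- Ter119- cells and sequenced by a Smart-seq protocol. Tie1 was deleted alone (Tie1 iΔLEC, 2 plates) or together with Tie2 (Tie1 Tie2 iΔLEC, 2 plates), against Tie1 fl/fl (2 plates) and Tie1 Tie2 fl/fl (2 plates) controls without Cre. Deletion was driven by Prox1-CreERT2, which acts in Prox1-expressing cells, and all 4 groups, controls included, received 62.5 µg of 4-hydroxytamoxifen on each of postnatal days 1 to 5. The labels give these dosing days in place of an age at collection, and they do not say how many mice contributed to a plate, which is why each plate counts as 1 sample and p-values measure only the spread between plates. In the Tie1 pair of genotypes, replicate 1 of each is labelled female, and the other 6 plates are labelled male. In a separate experiment, C57Bl/6j males received a mouse IgG1 control or the angiopoietin-2 blocking antibody (Ang2 Ab), 20 mg/kg every 3 days from postnatal day 16 to 21. CD31+ cells of each treatment were profiled in 1 droplet (10x) library, so the Ang2 Ab comparison has no replicates. The title of the Ang2 Ab library also carries the word control, and its group was taken from its treatment label.

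After filters, 2744 of 3026 wells were counted as LECs, 303 to 365 per plate, and their reads summed to 67371877 to 104254709 per plate. A well counted as LEC unless its cluster had a non-LEC name, and no LEC marker was required. Included were unnamed clusters led by Apoe and Lars2 (252 wells) and by Gm10800 and Gm26870 (109 wells). These had 4 and 5 of 6 fibroblast markers raised over the other LECs, at median depths 0.44 and 0.42 of that of all LEC wells. The cluster led by Apoe and Lars2 also had 5 of 7 capillary LEC markers and 3 of 8 LEC markers raised. For the cluster led by Gm10800 and Gm26870 the numbers were 0 of 7 and 1 of 8. The 8 LEC markers summed to 8569 to 9982 CPM (counts scaled to the library total) in the LEC wells of each plate. Tie1 itself was at 2348 to 2735 CPM in the control plates and 471 to 709 CPM in the 4 deleted plates, and Tek, which encodes Tie2, was at 227 to 322 CPM in controls and 30.6 and 52.8 CPM after double deletion. The tables came in a pair of layouts, 1 of each per genotype, and wells of the layout that lists gene symbols had more detected genes (medians of 5782 to 6849 per plate against 3580 to 4982). The markers of mural cells, 7 genes, summed to 10.6 to 55.8 CPM in the LEC wells of 6 plates but to 154 and 146 CPM after double deletion, with 1 marker at 0 in 1 of these plates. One of the 7, Kcnj8, also led an unnamed LEC cluster. That cluster held 55 and 58 wells of the double-deleted plates against 3 to 31 of the others, and the part of Kcnj8 in the sums was not tested. Fibroblast markers, 6 genes with none at 0, summed to 324 CPM in replicate 1 of Tie1 Tie2 fl/fl and to 74.2 to 178 CPM in the other 7 plates. The part of either in the results below was not tested.

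To set the genes in order, levels in the LEC wells of the 4 control plates were divided by exon length. Itgb1, at 175 ± 23.2 CPM per kb of exon (mean ± SD, n = 4), was the highest of the 8 measured β subunits, ahead of Itgb4, a laminin receptor subunit, at 110 ± 10.6 CPM per kb. Itga9, at 30.4 ± 5.79 CPM per kb, was second of 18 α subunits after the fibronectin receptor subunit Itga5, at 77.4 ± 6.19 CPM per kb. The α9 level lay above that of the laminin receptor subunit Itga6, 17.0 ± 3.89 CPM per kb, and of Itga3, 11.7 ± 2.86 CPM per kb. Among the ligands the order per kb was Fn1 at 89.6 ± 5.86, Emilin1 at 61.1 ± 14.2, Tnc at 2.95 ± 0.80 and Svep1 at 0.043 CPM per kb. LECs thus carried message for both receptor subunits and for 3 of the 4 ligands, whereas Svep1 was close to absent, with 9 to 159 reads among all LEC wells of a control plate. Wells named as fibroblast-like held more Svep1, 15.5 ± 16.5 CPM over the 4 control plates, with an SD as large as the mean.

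In single wells, thinned to 50000 reads each, Itga9 was seen with at least 5 reads in 51.0, 26.5, 38.7 and 44.8% of LEC wells of the control plates (the Tie1 fl/fl plates first). Fn1 was seen in 94.0, 70.5, 78.9 and 84.9% of the same wells, and Tnc in 4.78, 3.57, 2.20 and 5.86%. With any read counted, Itga9 was seen in 84.9, 44.6, 61.9 and 74.7% of these wells, so its share depends on the threshold. Fn1 was a transcript of most LECs and Tnc of few. The 2 plates of each genotype differ in layout, and the share with Itga9 was the larger in the symbol layout in both control genotypes. Wells with Itga9 also had Itgb1 in 77.4 to 95.9% of cases over the 8 plates, against 67.5 to 93.5% of wells without it. Within a plate the share was higher in wells with Itga9, except in replicate 2 of Tie1 Tie2 fl/fl (88.8 against 92.3%). These differences were not tested.

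The question of which LEC type carries the receptor and its ligands was asked in the control plates, with clusters named from marker genes and with the members left out of the clustering. Capillary-like, collector-like and valve-like LECs held 322, 240 and 176 control wells. Fn1 was at 784, 689, 913 and 648 CPM in capillary-like, 1058, 888, 818 and 737 CPM in collector-like, and 2484, 1980, 2044 and 2436 CPM in valve-like LECs of the 4 control plates. Every valve-like value lay above every capillary-like and collector-like value. By edgeR's quasi-likelihood test, blocked by plate, Fn1 was higher in valve-like than in capillary-like LECs by a log2 fold change of 1.56 (SE 0.13, adjusted p = 0.000333) and than in collector-like LECs by 1.30 (SE 0.13, adjusted p = 0.000615), and the call held in every alternative run. It was the only one of 5 tested members called (adjusted p under 0.05) in either comparison, where 1.48% and 1.49% of 14197 genes were called higher (3.19% and 3.71% in either direction). Svep1 did not pass the filter on low counts.

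**Figure D1:**
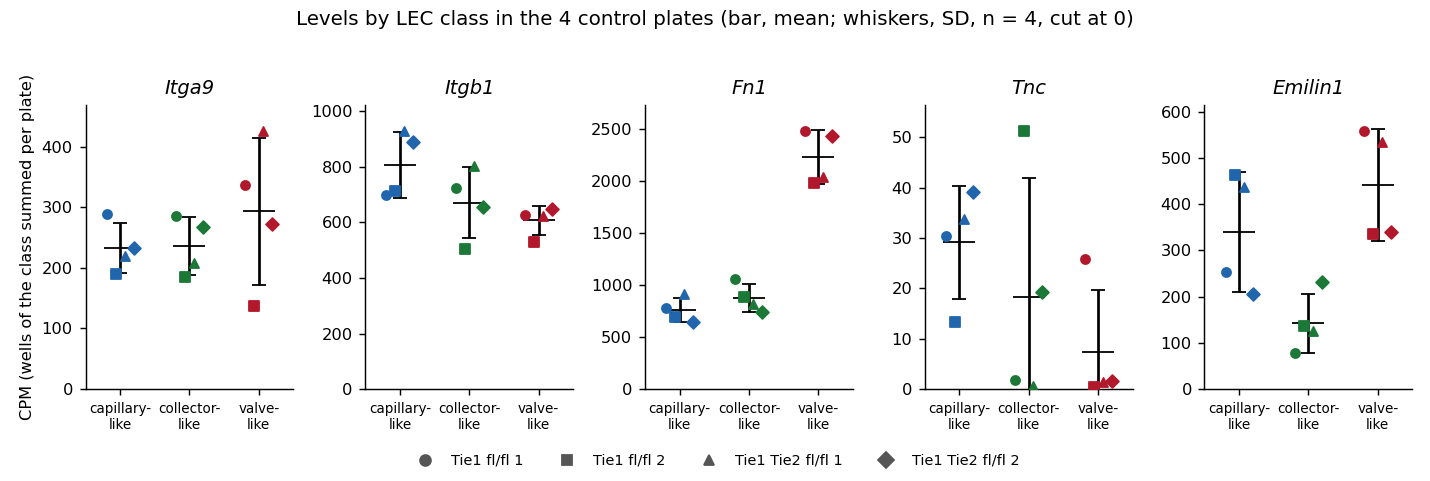
Levels of 5 genes in LEC classes of the 4 control plates, in CPM of the summed wells of each class and plate. Points are plates and bars the mean ± SD (n = 4). Fn1 reads about 2236 CPM in valve-like LECs against 759 and 875 CPM in capillary-like and collector-like LECs, and Itga9 overlaps between the classes.

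Itga9 overlapped between the classes, and no difference was called. It was at 289, 189, 219 and 234 CPM in capillary-like LECs, 285, 185, 208 and 267 CPM in collector-like LECs and 337, 138, 426 and 273 CPM in valve-like LECs. The valve-like plates spanned the whole range of the other classes and beyond it. Their value was above the capillary-like value in every control plate except replicate 2 of Tie1 fl/fl. That order depends on pooling, since the valve-like wells came from a pair of clusters. In the cluster led by Slc41a1, taken alone after the data were seen, Itga9 was at 252, 96.6, 205 and 234 CPM. These values lay below the capillary-like ones except in the last plate, where both read 234 CPM. Among thinned wells, Itga9 was seen in 74.2, 29.7, 58.3 and 58.8% of valve-like LECs. The shares were 51.1, 35.7, 31.5 and 37.8% in capillary-like and 41.5, 22.4, 32.9 and 48.4% in collector-like LECs, and were not tested. The log2 difference of valve-like from capillary-like LECs was 0.26 (SE 0.22, adjusted p = 0.722), and that of collector-like from capillary-like LECs was 0.08. Itgb1 averaged 809 ± 119 CPM in capillary-like, 671 ± 127 CPM in collector-like and 608 ± 52.8 CPM in valve-like LECs (n = 4). Its log2 difference of valve-like from capillary-like LECs, -0.41 (SE 0.12, adjusted p = 0.122), was not called.

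Emilin1 was at 252, 463, 436 and 205 CPM in capillary-like, 77.3, 136, 125 and 230 CPM in collector-like and 558, 336, 533 and 339 CPM in valve-like LECs of the control plates. No collector-like value reached the lowest valve-like value, and the capillary-like range overlapped both. The log2 difference of valve-like from collector-like LECs, 1.61 (SE 0.39), missed the threshold in edgeR's quasi-likelihood test (adjusted p = 0.0535) and passed it without replicate 2 of Tie1 Tie2 fl/fl (adjusted p = 0.0244) and in DESeq2 (adjusted p = 0.000479). Tnc averaged 29.1 ± 11.2 CPM in capillary-like, 18.2 ± 23.6 CPM in collector-like and 7.30 ± 12.3 CPM in valve-like LECs, with the SD above the mean in the last 2 classes, and no difference was called. Collector-like against capillary-like LECs gave no called member, where 0.93% of genes were called.

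Some other integrin and matrix genes separated the LEC types, and most listed genes did not. In valve-like against capillary-like LECs, 1 of 10 tested α subunits, 1 of 5 β subunits, 1 of 10 other ligands and 4 of 16 adhesion genes were called. Among all genes 3.19% were. Valve-like against collector-like LECs gave 1, 2, 2 and 3 of the same lists (3.71% of all genes). Collector-like against capillary-like LECs gave 0, 1, 2 and 0 (0.93%). Of the list of other α subunits, Itga1, a collagen receptor subunit, was lower in valve-like than in capillary-like LECs by a log2 difference of -4.36 (adjusted p = 0.00348), at 2.03 ± 1.13 against 39.7 ± 17.2 CPM. Itgb4 was at 574 ± 51.7 CPM in capillary-like, 841 ± 24.4 CPM in collector-like and 1427 ± 150 CPM in valve-like LECs, and all 3 pairs differed (log2 differences 0.61, 1.31 and 0.70, adjusted p from 8.84e-05 to 0.00969). Itgb8, which pairs with αv, was higher in valve-like than in collector-like LECs (28.4 ± 12.8 against 0.62 CPM, adjusted p = 0.0236). Osteopontin (Spp1), another reported α9β1 ligand, was at 30.9 ± 23.6 CPM in valve-like and 0.33 CPM in capillary-like LECs (adjusted p = 0.0196). In the list of the β1 adhesion complex, kindlin-3 (Fermt3) and zyxin (Zyx) were higher in valve-like than in capillary-like LECs, by log2 differences of 5.99 (adjusted p = 0.00741) and 0.71 (adjusted p = 0.0440), and integrin-linked kinase (Ilk, -0.79, adjusted p = 0.0109) and paxillin (Pxn, -0.65, adjusted p = 0.0263) were lower. Talin-1 (Tln1), which links β subunits to actin, was lower in valve-like than in collector-like LECs by -1.01 (adjusted p = 0.0236), as were Itga1, Ilk and Pxn. Tgm2, Mmrn2 and Mmrn1, also on the lists of this study, served to name the clusters, so their differences between classes are not results. Tgm2 is included in the ligand counts above for both comparisons with collector-like LECs.

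By pattern over 20 profiles (5 named LEC classes in 4 control plates), the genes most like Itga9 among 9825 genes were Cyb561a3 (Pearson r = 0.91), Gimap9 (0.85), Ahcyl1, Mapre3 and Armc5 (0.84 each). For Fn1 they were Hapln2 (0.87), Apold1 (0.86) and Wnt7a (0.84), for Emilin1 Tcp1 (0.74), Stom (0.73) and the valve marker Neo1 (0.72), for Itgb1 App (0.82), Flrt2 (0.78) and Sema6a (0.77), and for Tnc Gm28035 (0.75), Gtf2e1 (0.74) and Lrrc8a (0.73). Profiles of 1 plate share its library, and these values are a description only.

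To determine how the receptor and its ligands changed when Tie1, or Tie1 and Tie2, were lost, the LEC wells of each plate were summed. In such sums, fewer cells of a type and less RNA per cell cannot be told apart. With both receptors deleted, the fibronectin and tenascin-C transcripts rose while the α9 subunit was at its lowest levels. Deletion of Tie1 alone gave differences of Fn1 and Tnc in the same direction, and neither passed the test.

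Fn1 was at 1124 and 961 CPM in Tie1 fl/fl, 1741 and 1728 CPM in Tie1 iΔLEC, 1034 and 1071 CPM in Tie1 Tie2 fl/fl, and 3481 and 3385 CPM in Tie1 Tie2 iΔLEC plates. Both deleted genotypes lay above all 4 control plates, and the double-deleted plates above the others. By edgeR's quasi-likelihood test, Tie1 deletion gave a log2 fold change of 0.76 (SE 0.15, adjusted p = 0.665). Tie1/-2 deletion gave 1.72 (SE 0.15, adjusted p = 0.00265). Without replicate 1 of Tie1 Tie2 fl/fl the latter call was lost (adjusted p = 0.0529), and each of the other 7 leave-one-out fits kept it. The deletions were also compared with each other: the difference of their Fn1 fold changes, 0.97 (SE 0.21), had an adjusted p of 0.230 and was not called, whereas DESeq2 called it (adjusted p = 0.0186).

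Tnc was at 22.2 and 24.5 CPM in Tie1 fl/fl, 43.1 and 59.7 CPM in Tie1 iΔLEC, 14.9 and 29.9 CPM in Tie1 Tie2 fl/fl, and 275 and 290 CPM in Tie1 Tie2 iΔLEC plates. The order of the genotypes was that of Fn1, with no overlap between deleted and control plates. Loss of Tie1 gave a log2 fold change of 1.15 (SE 0.35, adjusted p = 1). Loss of both receptors gave 3.68 (SE 0.39, adjusted p = 0.00447), and this call held without each plate in turn. Their difference, 2.52 (SE 0.50), was not called (adjusted p = 0.170), whereas DESeq2 called it (adjusted p = 0.000351). Averaged over both deletions, Fn1 (log2 fold change 1.24, SE 0.11, adjusted p = 0.00261) and Tnc (2.42, SE 0.26, adjusted p = 0.00670) were called, where 1.01% of genes were. In the comparison between the deletions 0.136% of genes were called.

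**Figure D2:**
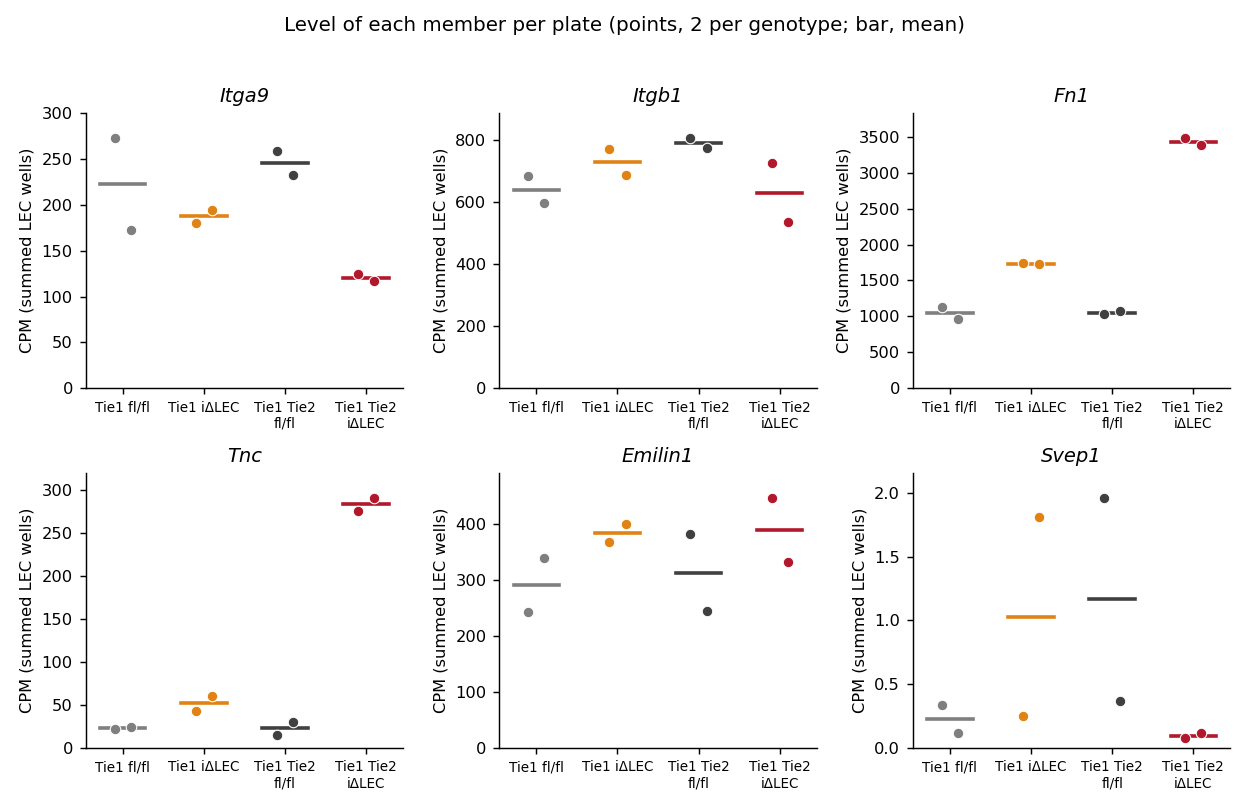
CPM of the 6 genes in the summed LEC wells of each plate, with 2 plates per genotype as points and their mean as a bar. Fn1 and Tnc are highest in both Tie1 Tie2 iΔLEC plates (3481 and 3385, and 275 and 290 CPM), and Itga9 is lowest there (124 and 117 CPM).

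Itga9 was at 273 and 172 CPM in Tie1 fl/fl, 180 and 195 CPM in Tie1 iΔLEC, 259 and 232 CPM in Tie1 Tie2 fl/fl, and 124 and 117 CPM in Tie1 Tie2 iΔLEC plates. The double-deleted plates lay below every other plate, and the Tie1 iΔLEC plates lay between their own controls. With Tie1 alone lost, Itga9 had a log2 difference of -0.21 (SE 0.24, adjusted p = 1). For the loss of both it was -1.01 (SE 0.24, adjusted p = 0.133). This last difference was called in DESeq2 (-0.99, adjusted p = 0.00904) and without the filter on low counts (adjusted p = 0.0236), so its call depends on the method. Itgb1, its partner subunit, was at 684 and 596, 770 and 686, 806 and 775, and 725 and 536 CPM in the 4 genotypes in the same order. The deleted plates lay just above their controls in the first case and below them in the second, and neither fold change was called (0.20, SE 0.21, adjusted p = 1, and -0.30, SE 0.21, adjusted p = 0.714).

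Emilin1 was at 242 and 339, 366 and 399, 381 and 243, and 446 and 332 CPM in the same order of genotypes. The double-deleted plates overlapped their controls, and the log2 fold changes of 0.40 (SE 0.33, adjusted p = 1) and 0.34 (SE 0.32, adjusted p = 0.828) were not called. Svep1 had 30 and 9, 21 and 145, 159 and 35, and 5 and 12 reads per plate. The highest of these counts, 159, came from the plate with the highest fibroblast marker level, and no difference was called. Thus 2 of 6 members, Fn1 and Tnc, were called with Tie1/-2 deletion, both higher, where 0.297% of 19861 genes were called higher and 0.881% lower (1.18% in either direction). With Tie1 deletion alone 0 of 19861 genes were called by edgeR, with 856 at an unadjusted p under 0.05, among them Fn1 and Tnc, and DESeq2 called Fn1 (adjusted p = 0.0223).

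More single wells held these transcripts, too. Fn1 was seen with at least 5 of 50000 reads in 99.0 and 88.6% of Tie1 iΔLEC wells and in 98.2 and 100% of Tie1 Tie2 iΔLEC wells, against 70.5 to 94.0% in controls. Tnc was seen in 9.15 and 10.2% of Tie1 iΔLEC wells and in 36.8 and 54.6% of Tie1 Tie2 iΔLEC wells, against 2.20 to 5.86% in the control plates. Within the Tnc values every deleted plate stood above every control plate. Itga9 was seen in 39.9 and 33.7% of Tie1 iΔLEC wells and 26.0 and 32.2% of Tie1 Tie2 iΔLEC wells. The Tie1 Tie2 iΔLEC shares lay below both of their own controls (38.7 and 44.8%). Against the Tie1 fl/fl plate at 26.5%, the share of 26.0% was only just lower and that of 32.2% was higher.

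Whether the shift belonged to one LEC type was then examined within classes. In capillary-like LECs, Fn1 was at 913 and 648 CPM in Tie1 Tie2 fl/fl and 3348 and 3568 CPM in Tie1 Tie2 iΔLEC plates, a log2 fold change of 2.13 (SE 0.24, adjusted p = 0.0126, edgeR). In collector-like LECs it was at 818 and 737 against 2657 and 2374 CPM, a log2 fold change of 1.66 (SE 0.23, adjusted p = 0.0186), with only 13 wells in each double-deleted plate. In valve-like LECs it was at 2044 and 2436 against 3198 and 2305 CPM, and the groups overlapped (0.34, SE 0.25, adjusted p = 0.868). Valve-like LECs were pooled from a pair of clusters, and the one in which Fermt3 was among the leading genes held 17 and 16 wells of the Tie1 Tie2 fl/fl plates but 1 well of each Tie1 Tie2 iΔLEC plate. In the other cluster, led by Slc41a1, present in every plate and taken alone after the data were seen (33 and 37 against 47 and 33 wells), Fn1 was at 1731 and 2049 against 3202 and 2160 CPM. There the groups did not overlap, and the log2 fold change of 0.50 (SE 0.27, adjusted p = 0.850, edgeR) was not called. Fn1 was called in the 2 classes with the lower control levels, where it reached values within or above the range of valve-like LECs in control plates (1980 to 2484 CPM). Among all genes, 0.0569% were called higher in capillary-like and 0.0281% in collector-like LECs. In either direction 0.272% were called in capillary-like, 0.365% in collector-like and 0.137% in valve-like LECs. The Fn1 call was lost in capillary-like LECs without replicate 1 or 2 of Tie1 Tie2 fl/fl (adjusted p = 0.0623 and 0.0899) and in collector-like LECs without the same plates (0.102 and 0.122).

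The difference between classes was tested in a fit added after these values were seen. The effect of Tie1/-2 deletion on Fn1 was smaller in valve-like than in collector-like LECs by a log2 difference of -1.37 (SE 0.23, adjusted p = 0.0461, edgeR), where 0.0351% of 17108 genes were called in this direction and 0.14% in either. That call held without replicate 1 of Tie1 Tie2 iΔLEC (adjusted p = 0.0402), was lost in the other 7 leave-one-out fits (0.0650 to 0.257) and was lost with finer clusters (-1.48, adjusted p = 0.0705) and with the Slc41a1 cluster as the only valve-like wells (-1.23, adjusted p = 0.0859). Against capillary-like LECs the difference was -1.86 (SE 0.23, adjusted p = 0.0604), which passed in DESeq2 (adjusted p = 5.0e-05). Collector-like and capillary-like LECs differed by -0.48 (SE 0.23, adjusted p = 0.599), where 0.0701% of genes were called.

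Tnc, in capillary-like LECs, was at 33.9 and 39.1 CPM in Tie1 Tie2 fl/fl and 261 and 250 CPM in Tie1 Tie2 iΔLEC plates, a log2 fold change of 2.80 (SE 0.45, adjusted p = 0.0454). This call stood close to the threshold and was lost without either Tie1 Tie2 fl/fl plate (adjusted p = 0.351 and 0.265), either Tie1 iΔLEC plate (0.0778 and 0.0810) or either Tie1 Tie2 iΔLEC plate (0.161 and 0.145), and with finer clusters (0.187). In collector-like LECs Tnc was at 0.51 and 19.4 against 44.7 and 261 CPM (3.94, SE 1.92, adjusted p = 0.440). In valve-like LECs it was at 1.36 and 1.65 against 80.5 and 137 CPM, and the log2 fold change of 6.17 (SE 1.59) had an adjusted p of 0.312. The control levels of these classes differed widely between plates, and the valve-like difference was called by DESeq2 (adjusted p = 5.1e-05) and without replicate 1 or 2 of Tie1 fl/fl (adjusted p = 0.0378 and 0.0326).

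**Figure D3:**
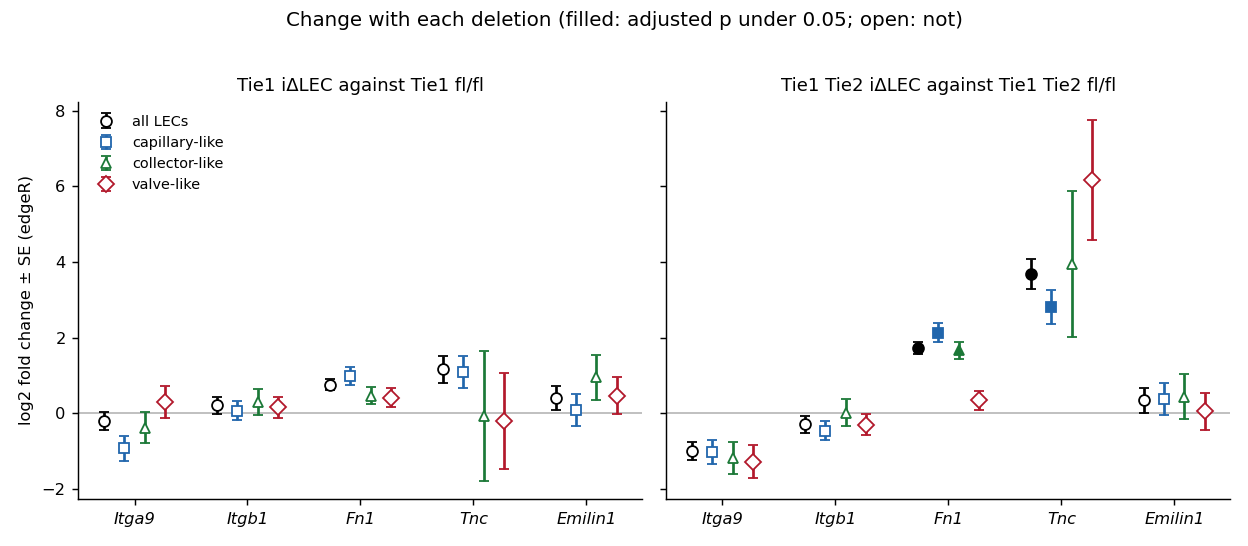
Log2 fold changes ± SE of 5 genes with Tie1 deletion and Tie1/-2 deletion, in all LECs and within each class, from edgeR over 8 plates. Filled points have an adjusted p under 0.05. With Tie1/-2 deletion, Fn1 is filled in all LECs, capillary-like and collector-like LECs (1.72, 2.13 and 1.66) but not in valve-like LECs (0.34), and Itga9 lies between -1.28 and -1.01 without a call.

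Itga9 was lower in the double-deleted plates in each class, and none of these differences was called. Capillary-like LECs had 219 and 234 CPM in Tie1 Tie2 fl/fl and 123 and 99.9 CPM in Tie1 Tie2 iΔLEC plates (log2 fold change -1.02, SE 0.32, adjusted p = 0.365). Collector-like LECs had 208 and 267 against 120 and 91.0 CPM (-1.19, SE 0.43, adjusted p = 0.310). Valve-like LECs had 426 and 273 against 128 and 158 CPM (-1.28, SE 0.44, adjusted p = 0.526). In the Slc41a1 cluster as the only valve-like wells, the values lay closer, at 205 and 234 against 132 and 166 CPM. Over the processing alternatives the valve-like log2 fold change lay between -1.43 and -0.58. The part of the valve-like cluster that was nearly absent after double deletion was not tested. In all 3 classes the groups did not overlap. The classes share the same plates, and how often other genes separate in this way was not computed, so this is a description only. With Tie1 deletion, no gene was called within any class. Fn1 changed there by log2 differences of 0.99, 0.46 and 0.41, and Itga9 by -0.93, -0.38 and 0.29, in capillary-like, collector-like and valve-like LECs (adjusted p = 0.969 to 1). Emilin1 and Itgb1 were not called within any class in either deletion.

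Over 10 LEC populations, the named classes and single unnamed clusters of the same plates, the 2 Tie1 Tie2 iΔLEC plates lay above the 2 Tie1 Tie2 fl/fl plates in all 10 for Tnc and in 9 for Fn1, with an overlap in the pooled valve-like LECs. With Tie1 deletion Fn1 also lay above its controls in 9, valve-like LECs included (2934 to 3066 against 1980 to 2484 CPM), and overlapped in proliferating-like LECs (1089 to 1168 against 790 to 1399 CPM). After double deletion Itga9 lay below its controls in 6 populations and overlapped them in 4, and Emilin1 overlapped in 8. How often other genes separate in this way was not computed, so these counts are a description only. The populations share their plates and are not separate samples, and some held as few as 3 wells of a plate. In the unnamed cluster led by Kcnj8 and Mest, Fn1 was at 759 and 904 CPM in controls and 3938 and 4474 CPM after double deletion. This cluster held 55 and 58 wells of the double-deleted plates against 3 to 31 wells of the other plates, and the cluster led by Edn1 and Cd36 held 79 in each against 17 to 40, so the makeup of the LEC sum moved as well. Wells named fibroblast-like or keratinocyte-like also held more Fn1 in the double-deleted plates. The 3 and 19 fibroblast-like wells had 3545 and 3163 CPM and the 2 and 4 keratinocyte-like wells 2283 and 2381 CPM, against 387 to 1118 CPM in such wells of control plates. These wells carried LEC transcripts too, since the LEC marker Mmrn1 was at 2523 ± 596 CPM in fibroblast-like and 2025 ± 983 CPM in keratinocyte-like wells of the control plates against 3020 ± 516 CPM in capillary-like LECs (n = 4). The median depth of the fibroblast-like wells was 0.086 of that of all kept wells. Whether reads passed between wells of a plate was not tested.

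**Figure D4:**
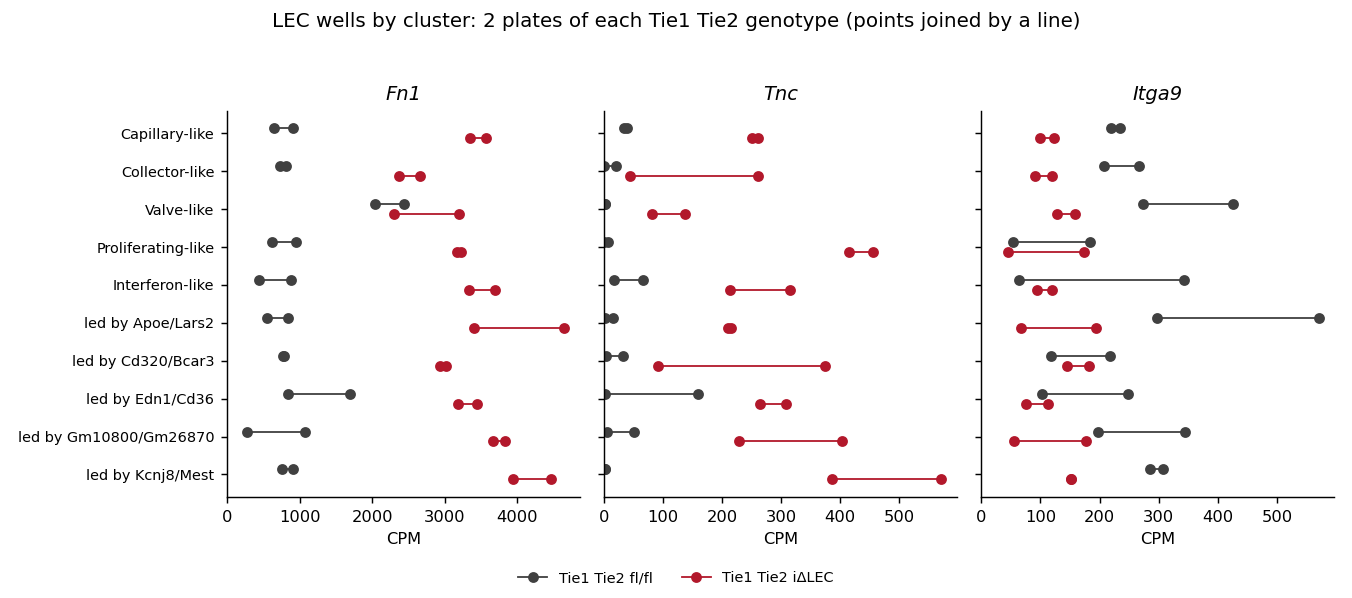
CPM of Fn1, Tnc and Itga9 in 10 LEC populations of the plates with floxed and deleted Tie1 and Tie2, 2 points per genotype. Fn1 is higher after deletion in 9 populations and overlaps in valve-like LECs (2044 and 2436 against 3198 and 2305 CPM).

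The counts of other integrin, ligand and adhesion genes called with Tie1/-2 deletion stand against 1.18% of all genes in either direction. Of the α subunits, 13 of 17 listed were tested and 0 were called (1 at an unadjusted p under 0.05, median log2 fold change -0.12 against 0.01 over all genes). Of the β subunits, 6 of 7 were tested and 0 were called, although 4 had an unadjusted p under 0.05 and the median was -1.87. Of the other reported ligands of α9β1, 11 of 12 were tested, with a median of -1.43, and 1 was called in each direction. Thrombospondin-1 (Thbs1), a matricellular protein, was at 125 and 149 CPM in Tie1 Tie2 fl/fl and 1139 and 1021 CPM in Tie1 Tie2 iΔLEC plates (3.0, SE 0.33, adjusted p = 0.00486). Transglutaminase 2 (Tgm2), an enzyme that cross-links matrix proteins, was at 1743 and 1873 against 601 and 395 CPM (-1.83, SE 0.25, adjusted p = 0.0122). Thbs1 thus moved with Fn1 and Tnc, and Tgm2, a marker of collector-like LECs, against them.

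Multimerin-2 (Mmrn2), an endothelial matrix glycoprotein and 1 of the 7 genes listed for the tenascin and EMILIN families, was at 369 and 332 against 30.9 and 14.6 CPM (-3.91, SE 0.41, adjusted p = 0.00447), the only call of that list. It too is a collector marker, and collector-like wells numbered 13 in each double-deleted plate against 38 to 72 in the others. Both were also lower within collector-like LECs, Tgm2 at 3258 and 2918 against 1382 and 991 CPM (-1.41, adjusted p = 0.0428) and Mmrn2 with 15432 and 12142 against 0 and 3 reads (adjusted p = 0.00056). In the β1 adhesion complex, 1 of 17 tested genes was called. Fermt3, the integrin activator best known from blood cells, was at 14.2 and 15.9 against 0.39 and 0.60 CPM (-4.91, SE 0.59, adjusted p = 0.00764). In capillary-like LECs Thbs1 (3.74, adjusted p = 0.0207) and Tgm2 (-1.76, adjusted p = 0.0207) were called. Fermt3 was called in valve-like LECs (-5.47, adjusted p = 0.0450), where the cluster with Fermt3 among its leading genes held 1 well of each double-deleted plate, and not in the Slc41a1 cluster alone (-4.85, adjusted p = 0.821). In Tie1 deletion alone, 0 genes of each list were called by edgeR, with 0 or 1 per list at an unadjusted p under 0.05.

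The antibody experiment asked the same of LECs in which angiopoietin-2 was blocked. It holds 1 library per treatment, so no test between treatments was possible, and the intervals below are exact 95% intervals that cover counting error only. The kept LECs numbered 1363 with IgG and 780 with Ang2 Ab. Over all LECs, Fn1 was at 790 CPM with IgG and 1401 CPM with Ang2 Ab, a ratio of 1.77 (1.73 to 1.82), and Tnc at 17.4 and 60.7 CPM, a ratio of 3.49 (3.04 to 4.02). Both ligands were thus past 1.5-fold in the direction seen with Tie1/-2 deletion, as were 3.43% of 10815 genes upward and 3.98% downward. Itga9 was at 181 and 160 CPM (0.88, 0.83 to 0.94), Itgb1 at 709 and 730 CPM (1.03, 1.00 to 1.06) and Emilin1 at 67.5 and 82.7 CPM (1.23, 1.12 to 1.34). None of these 3 passed 1.5-fold. Svep1 had 1 and 6 UMIs.

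By class, the Fn1 values differed between valve-like and other LECs. In capillary-like LECs, 412 and 267 cells of 1 cluster, Fn1 was at 677 and 1561 CPM (ratio 2.31, 2.21 to 2.41), where 2.76% of genes were at least 1.5-fold higher. In collector-like LECs, 597 and 255 cells of 1 cluster led by immediate-early and stress genes such as Rgs16, Socs3 and Fos, it was at 443 and 1109 CPM (2.50, 2.39 to 2.61), where 4.08% were. In valve-like LECs, 247 and 193 cells of 2 clusters, it was at 2242 and 1887 CPM, a ratio of 0.84 (0.81 to 0.88), where 2.27% of genes were at least 1.5-fold higher and 2.33% lower. The capillary-like ratio lay between 2.1 and 3.0 and the valve-like ratio between 0.83 and 0.88 over the processing alternatives, while the collector-like ratio ranged from 1.15 to 2.56. It was lowest when the cells with the top doublet scores were removed and the rest were clustered again. There the collector-like LECs held 2331 and 773 UMIs of Itgb1 against 5496 and 2566 in the main run, so the set of cells with this name also changed. The parts of removal and renaming were not tested. In proliferating-like LECs, 66 and 37 cells, Fn1 was at 355 and 839 CPM (2.36, 2.09 to 2.66), where 8.74% were at least 1.5-fold higher.

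Tnc was at 26.2 and 87.1 CPM in capillary-like LECs (3.33, 2.69 to 4.14), 15.6 and 52.6 CPM in collector-like LECs (3.38, 2.71 to 4.23) and 28.7 and 141 CPM in proliferating-like LECs (4.92, 3.42 to 7.17). Valve-like LECs had 8 and 19 UMIs of Tnc, a ratio of 3.40 with an interval of 1.42 to 8.98. Over the processing alternatives these ratios lay between 2.48 and 3.56 in capillary-like, 3.05 and 5.33 in collector-like and 2.17 and 5.96 in valve-like LECs. Among cells thinned to 3000 UMIs, 4.36% of LECs with IgG and 11.5% with Ang2 Ab had a Tnc UMI, against 0.53 and 0.66% of blood vascular endothelial cells, whose median depth was 9085 and 7457 UMIs against 11972 and 11242 in LECs. The LEC shares of Tnc thus stood above what those neighbouring endothelial cells showed. Itga9 was seen in 38.0 and 35.1% of LECs and 12.0 and 10.9% of blood vascular endothelial cells thinned in the same way.

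**Figure D5:**
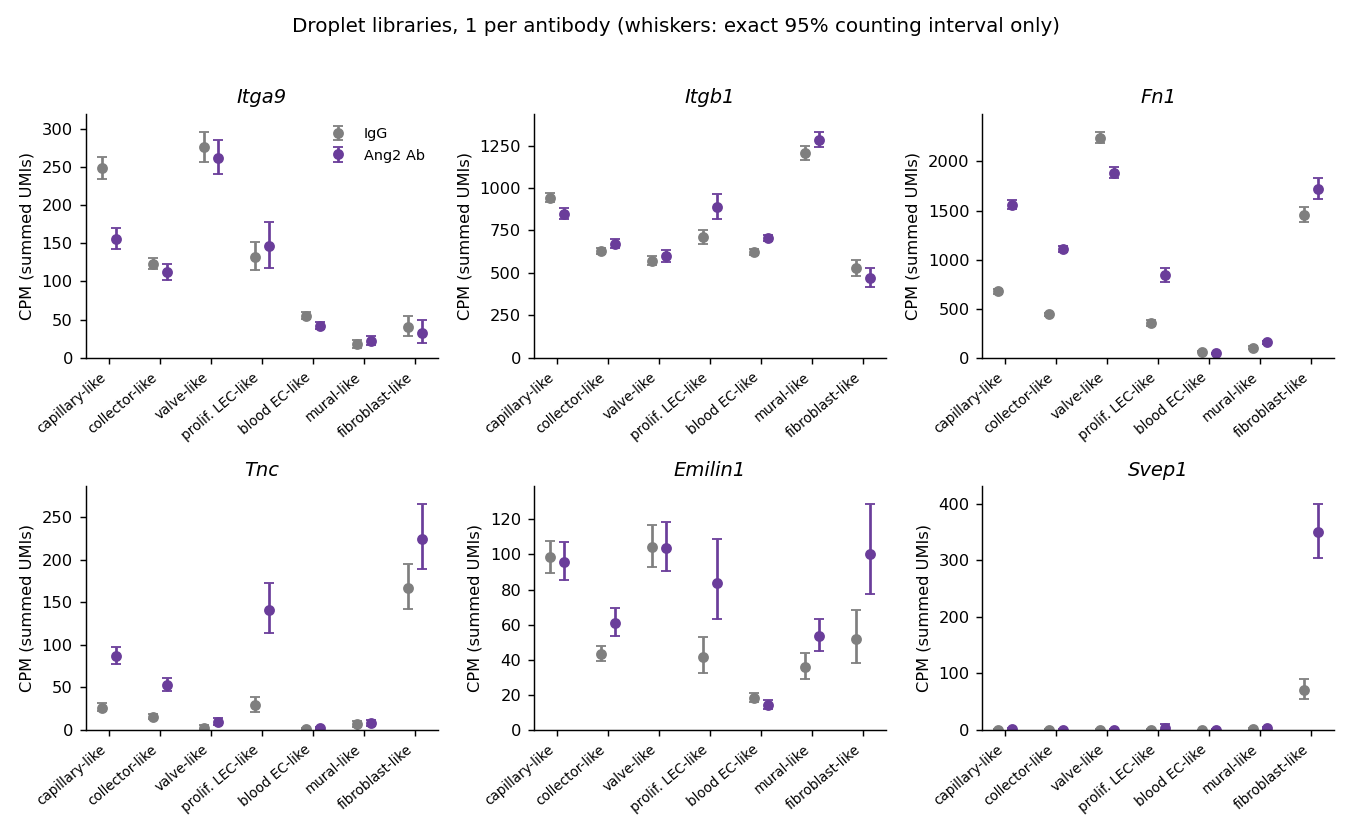
CPM of the 6 genes in 7 cell populations of the IgG and Ang2 Ab droplet libraries, 1 library each, with exact 95% counting intervals as whiskers. Fn1 is higher with Ang2 Ab in capillary-like (677 and 1561 CPM) and collector-like LECs (443 and 1109 CPM) and not in valve-like LECs (2242 and 1887 CPM), and Svep1 is largely a fibroblast transcript.

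The α9 subunit was at 248 CPM with IgG and 156 CPM with Ang2 Ab in capillary-like LECs, a ratio of 0.63 (0.57 to 0.70). It was at 123 and 112 CPM in collector-like LECs (0.91, 0.81 to 1.02) and at 276 and 262 CPM in valve-like LECs (0.95, 0.85 to 1.06). In capillary-like LECs 4.57% of genes were at least 1.5-fold lower. Over the processing alternatives the ratio lay between 0.59 and 0.65 in capillary-like, 0.71 and 1.12 in collector-like and 0.80 and 1.02 in valve-like LECs. Emilin1 had ratios of 0.97 in capillary-like, 1.41 (1.19 to 1.66) in collector-like and 0.99 in valve-like LECs. Itgb1 had ratios of 0.90, 1.07 and 1.05 in the same classes.

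Outside the LECs, the cells named blood vascular endothelial had low Fn1 (62.6 and 43.9 CPM) and Itga9 (55.0 and 42.0 CPM). An unnamed endothelial cluster led by Gkn3 and Gja5 was not part of that class and had Fn1 within the range of LECs, as given below. Fibroblast-like cells, 47 with IgG and 39 with Ang2 Ab, had Fn1 at 1459 and 1722 CPM (1.18, 1.09 to 1.28) and Tnc at 167 and 225 CPM (1.34, 1.06 to 1.70). They also held the most Svep1, at 70.9 and 349 CPM (4.92, 3.73 to 6.57), from 67 and 219 UMIs, where 6.6% of genes were at least 1.5-fold higher. Fibroblast-like cells were thus a second population with Fn1 and Tnc, and the one with nearly all Svep1 among the populations described. Fibroblast markers summed to 119 and 124 CPM in the LECs of the 2 libraries and mural markers to 99.5 and 55.8 CPM, with none of either list at 0, while LEC markers summed to 15300 and 11753 CPM.

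Among the listed genes with at least 100 UMIs over all LECs, Thbs1 was at a ratio of 3.04 (2.90 to 3.19), with 2.58 in capillary-like, 4.06 in collector-like and 0.91 in valve-like LECs. It was the only other α9β1 ligand of 8 past 1.5-fold upward, and Vcam1 (0.40) and Tgm2 (0.62) were among those past it downward. Of the α subunits, 2 of 6 were past it, Itga1 (1.79) and Itga8 (2.45), both upward, and of the β subunits 0 of 3. Over 10815 genes, 3.43% were past it upward and 3.98% downward. Among α subunits with at least 100 UMIs in a class, only Itga1 was past it, in capillary-like and collector-like LECs and not in valve-like LECs. Of the β subunits with as many UMIs in capillary-like LECs, 2 of 2, Itgb3 and Itgb4, were past it downward (median ratio 0.56). There 4.57% of genes were. In collector-like and in valve-like LECs 0 of 2 β subunits were past it. Over all LECs, Mmrn2 was at 0.65, and Fermt3 (1.54) and Lims2 (1.68), which encodes a partner of integrin-linked kinase, were past it upward. Fermt3 was lower with Tie1/-2 deletion. Ratios over all LECs also move with the mix of LEC classes, and the part of that mix was not tested. Among listed genes with at least 100 UMIs in a class, neither Fermt3 nor Lims2 was past 1.5-fold within capillary-like, collector-like or valve-like LECs.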

How the data were processed

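Smart-seq reads were aligned, cleared of duplicate reads (by the column names) and counted per gene by the authors; the deposited plate tables hold raw counts per gene and well, and the deposited droplet matrices hold raw UMI counts. The submitters' processing notes name TopHat2 2.1.1, SAMtools 0.1.18, Subread, featureCounts, R 3.5.1, Seurat 4.0.6 and Cell Ranger 2.1.1 with GRCm38 (mm10), while the matrix headers name Cell Ranger 6.0.2. Members and gene lists were chosen with earlier results of these data known.

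The 8 tables were joined on 42564 genes, which held 95.9 to 97.1% of each plate's counts (71309205 to 110741537 per plate). Wells with at least 1000 detected genes were kept, and cells with at least 500 genes and at most 10% mitochondrial UMIs (3438 of 4685 barcodes with IgG and 2963 of 4331 with Ang2 Ab, 5 barcodes shared). Scrublet marked 0.611 and 0.0675% of cells, which shows that it had not worked, so doublets were left in. Clusters (scanpy 1.11.5, leidenalg 0.10.2; 2000 variable genes, 30 components, 15 neighbours, resolution 1) were made without 78 genes. These were the members, the lists and genes that the study names among its results, the naming markers Prox1, Flt4, Lyve1, Foxc2 and Cldn11 included. To be named, a cluster needed at least 3 markers of a type 1.5-fold above all other cells (1.4-fold above other LECs for LEC types), each in at least 10% of its cells. Most non-LEC names also needed a set share of their markers. Droplet LECs were named by Prox1 with another LEC marker, or by several LEC markers. An LEC type name was dropped where another type had more markers among the leading genes. It was also dropped at a depth under 0.5 of the median with no own marker among them, as for the Apoe and Lars2 cluster. On the plates, which held sorted LECs, each cluster without a non-LEC name was counted as LEC. These naming thresholds were set on these data.

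Counts of a plate's LEC wells, or of a class with at least 10 wells in a plate, were summed, TMM-scaled (factors 0.951 to 1.067), filtered with filterByExpr and tested with edgeR 4.0.16 (quasi-likelihood, R 4.3.3), with the genotype group over 8 plates, or with the plate as a block for classes in control plates. P-values were adjusted by Benjamini-Hochberg over all genes tested, and a gene is called at an adjusted p under 0.05. DESeq2 1.42.0 was an alternative, as were other filters, scalings, clusterings and each plate left out. Named were the 6 members and, from the lists, the genes called in the contrast described. Replicate plates differed by far more than sampling noise (chi-square per degree of freedom of 167 to 395), so none was a copy. On simulated counts with known fold changes, the Tie1/-2 comparison (19261 genes) recovered 60.9% of 4-fold changes over 50 CPM and 17.3% of all 4-fold changes, and the Tie1 comparison (19308 genes) recovered 81.8% and 23.7%. Each simulation changed 100 genes by 2-fold and 100 by 4-fold. In the measured Tie1 comparison 0 genes were called. Tie1 itself was missed, at 2348 and 2721 CPM in Tie1 fl/fl and 697 and 632 CPM in Tie1 iΔLEC plates. Recovery in the data can thus be lower than in the simulation. Droplet ratios were taken between summed UMIs with exact 95% intervals. Intervals cover counting error only. A gene of the lists is not reported here.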

Additional observations from a re-analysis of the deposited data

Results flagged for a closer look

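The response of Fn1 to Tie1/-2 deletion differed between valve-like and collector-like LECs, by a log2 difference of -1.37 (SE 0.23, adjusted p = 0.0461 by edgeR's quasi-likelihood test), in a comparison added after the class values were seen. In collector-like LECs both double-deleted plates were above both controls, and in valve-like LECs the plates overlapped. Of the pair of clusters pooled as valve-like, one fell from 17 and 16 wells to 1 and 1. With the other, led by Slc41a1, as the only valve-like wells the plates did not overlap and the call was lost (-1.23, adjusted p = 0.0859). The call was lost in 7 of 8 fits that left out 1 plate (adjusted p = 0.0650 to 0.257) and kept without replicate 1 of Tie1 Tie2 iΔLEC (0.0402). Collector-like LECs had 13 wells in each double-deleted plate, and the part of this number in the difference was not tested.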

How the results depend on the processing

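With Tie1/-2 deletion, the Fn1 and Tnc calls over all LECs held in all 10 alternative fits that left out no plate of the contrast, with log2 fold changes of 1.62 to 1.77 and 3.35 to 3.79. Itga9 in that comparison was called without the filter on low counts (-1.01, adjusted p = 0.0236) and in DESeq2 (-0.99, adjusted p = 0.00904). With Tie1 deletion, 1 member was called without the filter (Tnc), in DESeq2 (Fn1) and over wells with no read of a fibroblast marker (Emilin1), where Itga9 (1.72) and Tnc (-1.07) reversed; that last setting left 1 control plate with 10 or more wells and could be fitted for no other comparison. Between the deletions, 1 member was called without the filter and 2 in DESeq2, and Emilin1 reversed over all wells (0.012).

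Within classes, finer clusters left 1 member called in capillary-like LECs with Tie1/-2 deletion and reversed Emilin1 there (-0.20), Itga9 (0.26) and Tnc (0.55) in collector-like and Tnc (4.35) in valve-like LECs with Tie1 deletion, and Itga9 between collector-like and capillary-like LECs (-0.46). Without the filter, 2 members were called in collector-like LECs, with Itgb1 reversed (-0.039), and 1 in valve-like LECs, as in DESeq2 (1). Between classes of control plates, DESeq2 called 1 member in collector-like against capillary-like LECs. In valve-like against collector-like LECs 2 were called without the filter, in DESeq2 and with finer clusters, and 3 over all 8 plates, where valve-like against capillary-like LECs gave 2 and Fn1 reversed between collector-like and capillary-like LECs (-0.012). The test of class differences in the response called 1 member for valve-like against capillary-like LECs without the filter, in DESeq2 and with finer clusters, and 0 for valve-like against collector-like LECs with finer clusters or with the Slc41a1 cluster as the only valve-like wells.

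Leaving out 1 plate at a time moved the number of members called with Tie1/-2 deletion over 1 to 2 in all LECs, 0 to 2 in capillary-like, 0 to 1 in collector-like and 0 to 1 in valve-like LECs, over 1 to 2 for valve-like against collector-like LECs, and over 0 to 1 for both class differences of the response. Log2 fold changes crossed 0 for Itga9 with Tie1 deletion (-0.44 to 0.064 in all LECs, -0.19 to 1.00 in valve-like LECs), Itgb1 (-0.016 to 0.16 in capillary-like, -0.0073 to 0.30 in valve-like LECs), Emilin1 (-0.33 to 0.68 in capillary-like LECs) and Tnc (-2.20 to 3.88 in collector-like, -1.19 to 4.76 in valve-like LECs). With Tie1/-2 deletion they did so for Emilin1 (-0.091 to 1.03 in capillary-like, -0.29 to 0.89 in collector-like, -0.85 to 0.62 in valve-like LECs) and Itgb1 (-0.46 to 0.31 in collector-like LECs). The same held for Emilin1 between the deletions (-0.42 to 0.34), Itgb1 (-0.23 to 0.078) and Svep1 (-1.74 to 0.17) averaged over them, Tnc between collector-like and capillary-like LECs (-3.27 to 0.26), and Itga9 (-0.091 to 0.39) and Tnc (-4.24 to 0.60) between valve-like and collector-like LECs.

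The labels share replicate numbers between Tie1 fl/fl and Tie1 iΔLEC, and the same-numbered plates also share their sex label and table layout, while the labels give no batch. The deviations of same-numbered plates correlated at r = 0.110. With a replicate block, 0 members were called with Tie1 deletion, as without it (Fn1 0.75, adjusted p = 0.910). The cause of these changes was not tested. With 2 plates per genotype and 1 library per treatment, most 2-fold changes lie below what these comparisons can call (0% recovered with Tie1 deletion and 1% with Tie1/-2 deletion on simulated counts).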

Other observations

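In the droplet libraries, a pair of small unnamed endothelial clusters differed in fibronectin. The cluster led by Gkn3 and Gja5 (173 cells with IgG and 186 with Ang2 Ab) had Fn1 at 921 and 1054 CPM, within the range of LECs, and no more than 2 UMIs of Tnc in either library. The cluster led by Pgf and Kit (69 and 132 cells) had Fn1 at 150 and 17.5 CPM and Itgb1 at 1016 and 1185 CPM. Mural cells had Itgb1 at 1207 and 1284 CPM and Itga9 at 17.7 and 21.8 CPM. Each of these comparisons rests on 1 library per treatment.

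In the plates, with the pair of valve-like clusters pooled, the highest mean Itga9 levels of the control LECs were in clusters that markers did not name. They were at 368 ± 141 CPM in the cluster led by Apoe and Lars2 and 339 ± 86.0 CPM in the cluster led by Kcnj8 and Mest (mean ± SD, n = 4). The Slc41a1 cluster lay below the pooled valve-like value in each control plate. The other valve-like cluster thus lay above that value, and it was not ranked alone. The median depth of the wells of the Apoe and Lars2 cluster was 0.44 of that of all LEC wells. This cluster had 5 of 7 capillary LEC markers and 4 of 6 fibroblast markers raised over the other LECs.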
